A study of Mus musculus with 26 samples.

Results

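Embryonic stem (ES) cells carried 1287 regions of open chromatin that formative stem (FS) cells and epiblast stem cells (EpiSCs) lacked among their strongest peaks. The regions were taken from 18 ATAC-seq peak lists, 3 for each of 6 mouse cultures. The 8044 peaks of highest −log10 p were kept from every list, which is the length of the shortest list, and peaks that overlapped were merged into 25068 union regions. A region was called ES only where at least 2 of the 3 ES lists had a peak in it and none of the 15 FS and EpiSC lists did. The 1287 regions made up 5.13% of the union. The regions were thus chosen by presence and by −log10 p rank in these 18 lists. This choice used the ES lists against the others, so the absence of the regions from the other equal-length lists is their definition and not a result.

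The ES culture was at passage 16 in a medium labelled 2iL. FS1 at passage 21 and FS2 at passage 29 were grown in A3XR. EpiSC_AF at passage 22 was grown in AF, and EpiSC_AFX1 at passage 14 and EpiSC_AFX2 at passage 16 were grown in AFX. A second set, labelled Rd2, held 2 ES libraries at passage 33 in 2iL (Rd2_ES), 4 libraries of epiblast-like cells induced for 2 days in AF with KSR and sorted for low GFP (Rd2_EpiLC), and 2 libraries of EpiSCs at passage 16 in AFX (Rd2_AFX). Each library started from 50000 cells. The source of the Rd2_ES libraries is labelled Rd2GFP. Apart from such names the labels give no genotype, and they give no sex for any line. Each first-set group is 1 line, and nothing says that the numbered libraries of a group came from separate cultures, so their spread may be technical.

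ATAC-seq marks DNA that the Tn5 transposase can reach, mostly promoters and enhancers that are free of nucleosomes. ES cells in 2iL are the standard model of naive pluripotency, the state of the epiblast before implantation, whereas EpiSCs model the primed state after implantation and FS cells are placed between them. Naive and primed cells use many of the same promoters, and differ more in the distal enhancers that are open, including different enhancers of the same pluripotency genes. The zinc finger genes whose names begin with Zfp include a large family that represses transposable elements and has grown by local duplication.

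Zfp symbols made up 6.12% of the 147 promoter windows that ES-only regions overlapped and 1.24% of all windows in the RefSeq table, and symbols of predicted genes that begin with Gm made up 21.8% and 32%. The 250 bases before the start of 9 genes are shown, picked after their values were seen so that groups of copies and single promoters stand side by side, 5′ to 3′ on the strand of the gene, from the RefSeq promoter table of GRCm38.p6, with each CG dinucleotide in capitals. The first 3 belong to a group of near-copies on chromosome 13, the next pair to a group on chromosome 7, and Gm40881 to a group on chromosome 12. Khdrbs2, Rbmxl2 and Zfp42 have no copy of at least 75% identity among the promoters that ES-only regions overlapped.
2410141K09Rik: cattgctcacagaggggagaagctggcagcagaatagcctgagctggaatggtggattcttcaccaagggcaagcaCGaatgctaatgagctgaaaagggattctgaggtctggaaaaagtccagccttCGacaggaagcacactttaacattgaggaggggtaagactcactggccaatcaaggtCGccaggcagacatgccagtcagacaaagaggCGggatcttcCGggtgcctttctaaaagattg
Gm31714: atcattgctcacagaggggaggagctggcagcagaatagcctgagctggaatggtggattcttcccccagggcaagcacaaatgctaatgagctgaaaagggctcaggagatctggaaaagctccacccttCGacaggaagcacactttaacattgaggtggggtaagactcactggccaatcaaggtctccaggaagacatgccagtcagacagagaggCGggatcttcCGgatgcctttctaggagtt
Zfp640: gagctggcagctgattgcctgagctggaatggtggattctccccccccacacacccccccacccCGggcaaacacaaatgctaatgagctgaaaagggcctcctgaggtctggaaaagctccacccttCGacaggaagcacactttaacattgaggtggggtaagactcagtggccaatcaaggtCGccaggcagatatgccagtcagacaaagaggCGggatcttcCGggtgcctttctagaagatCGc
Gm6871: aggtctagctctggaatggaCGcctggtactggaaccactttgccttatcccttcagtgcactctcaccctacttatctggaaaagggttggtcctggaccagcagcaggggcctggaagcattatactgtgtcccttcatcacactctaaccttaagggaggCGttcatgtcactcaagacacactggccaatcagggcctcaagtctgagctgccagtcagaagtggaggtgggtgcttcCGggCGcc
Zfp936: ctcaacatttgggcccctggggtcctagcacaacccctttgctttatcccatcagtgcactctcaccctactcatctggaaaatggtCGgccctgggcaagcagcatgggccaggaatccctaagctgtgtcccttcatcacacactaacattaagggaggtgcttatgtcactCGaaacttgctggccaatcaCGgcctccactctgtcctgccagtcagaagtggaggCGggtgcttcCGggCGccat
Gm40881: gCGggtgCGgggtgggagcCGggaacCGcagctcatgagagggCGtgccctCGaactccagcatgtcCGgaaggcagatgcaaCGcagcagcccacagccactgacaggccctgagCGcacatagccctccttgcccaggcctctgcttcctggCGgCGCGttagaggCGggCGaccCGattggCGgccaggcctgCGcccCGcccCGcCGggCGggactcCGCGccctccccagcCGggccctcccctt
Khdrbs2: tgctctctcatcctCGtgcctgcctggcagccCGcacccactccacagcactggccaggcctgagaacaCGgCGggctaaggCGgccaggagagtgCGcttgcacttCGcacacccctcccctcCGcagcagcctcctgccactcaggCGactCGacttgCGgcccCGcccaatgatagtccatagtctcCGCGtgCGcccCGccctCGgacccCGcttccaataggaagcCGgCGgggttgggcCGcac
Rbmxl2: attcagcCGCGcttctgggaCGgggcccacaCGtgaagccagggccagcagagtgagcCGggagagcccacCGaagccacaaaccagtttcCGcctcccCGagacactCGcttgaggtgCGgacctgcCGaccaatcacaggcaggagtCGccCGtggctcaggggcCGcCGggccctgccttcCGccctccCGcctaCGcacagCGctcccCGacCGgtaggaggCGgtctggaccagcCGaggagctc
Zfp42: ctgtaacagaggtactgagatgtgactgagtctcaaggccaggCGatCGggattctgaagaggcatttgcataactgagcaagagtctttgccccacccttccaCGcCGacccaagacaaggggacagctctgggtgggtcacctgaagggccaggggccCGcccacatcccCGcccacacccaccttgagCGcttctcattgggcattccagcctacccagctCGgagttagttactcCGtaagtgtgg
The printed stretches are chr13:66441119-66441368 (minus strand) for 2410141K09Rik, chr13:65415123-65415372 (minus strand) for Gm31714, chr13:66680804-66681053 (minus strand) for Zfp640, chr7:41560830-41561079 (minus strand) for Gm6871, chr7:43177340-43177589 (plus strand) for Zfp936, chr12:20311963-20312212 (plus strand) for Gm40881, chr1:32172472-32172721 (plus strand) for Khdrbs2, chr7:107209195-107209444 (plus strand) for Rbmxl2 and chr8:43307010-43307259 (minus strand) for Zfp42. Few CG dinucleotides lie in the stretches from chromosomes 13 and 7, with 3 to 6 in each, against 24 for Gm40881, 21 for Khdrbs2 and 23 for Rbmxl2. Zfp42 stood between them with 9.

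The lists differed in length, and depth was unknown because the files hold no read counts. The ES lists held 8044 to 10961 peaks and the other first-set lists 11796 to 31263. The Rd2_ES lists were far shorter, with 471 and 2576 peaks, against 7469 to 26045 for Rd2_EpiLC and 10719 to 11252 for Rd2_AFX. The shortest peak of any list was 150 bp in the first set and 110 bp in the Rd2 set, and the sources used here do not say why. Set, passage and line cannot be told apart between them.

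The ES lists shared the regions evenly. All 3 ES lists had 372 of the 1287, and 915 were in exactly 2: 300 in ES 1 and ES 2, 306 in ES 1 and ES 3, and 309 in ES 2 and ES 3. Of those 915, the missing list had a peak at full length in 137 and lacked one in 778. With 1 ES library left out and both others required, the regions numbered 679 without ES 1, 677 without ES 2 and 672 without ES 3. The count was 612 on the lists as deposited, 444 with 4022 peaks kept from each and 29 with only peaks of −log10 q of at least 5. Just outside the rule stood 4146 regions with a peak in 1 ES list and in no other list, and 288 with 2 or 3 ES lists and exactly 1 FS or EpiSC list. The same rule applied to each other line in turn called 120 regions for FS1 (0.479% of the union), 261 for FS2 (1.04%), 80 for EpiSC_AF (0.319%), 107 for EpiSC_AFX1 (0.427%) and 125 for EpiSC_AFX2 (0.499%). These counts are a description, since lines of the same cell type stand against each other in those 5 cases and ES stands alone.

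Most ES-only peaks ranked below the middle of the equal-length ES lists. They made up 12.2% ± 0.0577 (SD, n = 3) of the peaks of an equal-length ES list. The median percentile of these peaks, 100 being the highest −log10 p in the deposited list, was 53.7 in ES 1, 37.0 in ES 2 and 48.6 in ES 3. For all peaks of the equal-length lists it was 63.3, 50 and 58.6. For the ES peaks that at least 1 other line shared (5356 regions with at least 2 ES lists and at least 1 other list, called ES shared here) it was 73.8, 65.6 and 70.6. The authors' fold enrichment had a median of 3.98, 3.81 and 3.86 in the ES-only peaks and 4.32, 4.22 and 4.20 in the shared ones. In each ES library the ES-only peaks were thus the lower in rank and in fold.

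ES-only peaks were scarce at the top of the ES lists. Each equal-length list was split by rank into 10 parts of about 804 peaks. Of the highest part, 25 peaks of ES 1, 33 of ES 2 and 22 of ES 3 were ES only, which is 3.11%, 4.10% and 2.73%. In the lowest part the shares were 16.5%, 17.8% and 16.5%. Shared regions took 95.4% to 96.3% of the highest part and 21% to 34.1% of the lowest.

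**Figure D1:**
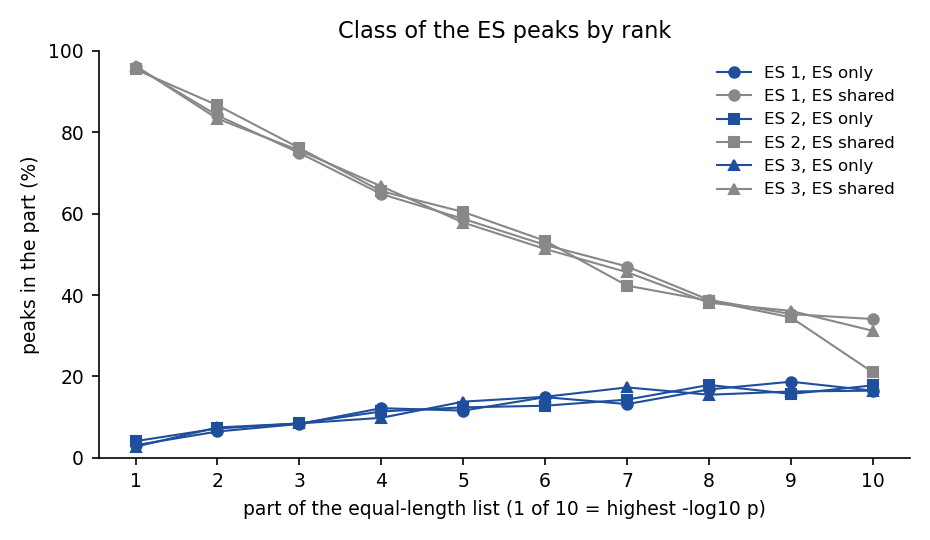
Share of peaks (%) that were ES only (blue) or shared with another line (grey) in each of 10 parts of the 3 equal-length ES lists, ordered by −log10 p. ES-only peaks take 2.73% to 4.10% of the highest part and 16.5% to 17.8% of the lowest.

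The ES-only regions lay away from genes. Only 149 of the 1287 (11.6%) came within 1 kb of where a protein-coding gene starts or ends, against 67.8% of the ES shared regions and 39.0% of all union regions. The median distance to the nearest gene end was 31.4 kb, and in shared regions it was 0, since 61.2% of them overlapped an end. A gene body held 498 of the regions (38.7%), of which 362 lay over 1 kb from an end. More than 100 kb from any protein-coding gene lay 333 (25.9%), against 4.29% of shared and 9.41% of all regions.

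The 3 ES libraries gave the same picture one by one. The share of ES-only peaks at gene ends was 10.6% in ES 1, 12.4% in ES 2 and 11.4% in ES 3, and that of shared peaks was 66.6%, 66.8% and 66.7%. The ranges did not overlap. Every region of both classes was in at least 2 of the 3 ES lists, so the libraries largely measured the same regions. The regions in all 3 ES lists were placed like those in 2, with 12.9% and 11% at gene ends. ES-only regions were narrower than shared ones, with a median width of 438 bp (range 159 to 1672) against 719 bp, although single ES peaks had nearly the same median width in both classes, 293 bp ± 17.7 and 304 bp ± 7.5 (SD, n = 3).

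Distance from genes was not seen in ES alone. The EpiSC_AFX2-only regions had 12.0% at gene ends, a median of 29.8 kb and 24.8% beyond 100 kb from a gene. In the other lines' own regions the share at gene ends was 21.7% in FS1, 34.9% in FS2, 22.5% in EpiSC_AF and 28% in EpiSC_AFX1, and 4.21% to 9.17% lay beyond 100 kb. The regions of a single ES list and no other were also distal, with 12.4% at gene ends and a median of 28.9 kb.

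**Figure D2:**
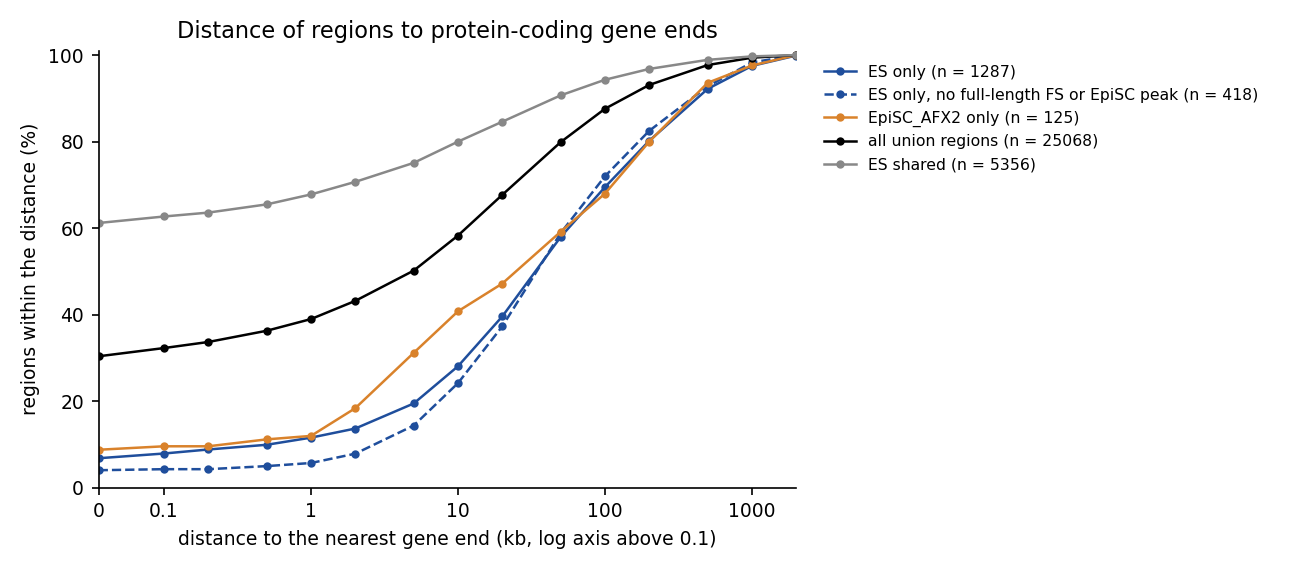
Cumulative share of regions (%) against the distance to the nearest end of a protein-coding gene (kb, log axis above 0.1 kb). At 1 kb the curve of ES-only regions stands at 11.6%, that of EpiSC_AFX2-only regions at 12.0%, that of all union regions at 39.0% and that of ES shared regions at 67.8%.

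Many of the regions did have a peak of lower rank in another line. In the lists as deposited, 869 of the 1287 (67.5%) had a peak in at least 1 FS or EpiSC library and 418 (32.5%) in none, against 10% of all union regions, a share that the choice of the members raises. The peak was in only 1 or 2 of the 15 libraries for 369 regions, in at least 8 for 184 and in all 15 for 6. Both FS and EpiSC libraries had it in 503, FS alone in 120 and EpiSC alone in 246.

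The libraries differed in how many ES-only regions they held. FS1 had 353, 315 and 392 of them, FS2 had 140, 77 and 123, EpiSC_AF 174, 337 and 368, EpiSC_AFX1 143, 199 and 314, and EpiSC_AFX2 326, 333 and 357. FS2 was lowest, from 5.98% to 10.9%, and its lists were also the shortest after ES. List length moved with these counts, and its part in them was not tested. The share of ES shared regions found in the same libraries was 80.1% or more in all 15.

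Where another line had such a peak, it mostly ranked low in its own list, and strength was not compared between lists. The median percentile of these peaks in their own list lay between 13.5 (FS2 2) and 32.9 (EpiSC_AFX2 2), and that of the shared regions between 67.1 and 87.9. The highest percentile reached by any ES-only region was 30.8 in FS2 2 and 72.0 in FS1 3. The equal-length cut sets this ceiling, so the values describe where the cut fell.

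The 418 regions without any full-length FS or EpiSC peak were even rarer at gene ends. There, 24 (5.74%) were within 1 kb of an end and 100 (23.9%) were over 100 kb from a gene, with a median width of 348 bp. Of them, 87 were in all 3 ES lists. Of the 1287, 347 (27%) had no peak in any of the other 21 lists that are not ES, the Rd2 EpiLC and EpiSC lists included. Among regions of a single ES list and no other, that share was 44.9%. By mean percentile the 10 highest of the 418, chosen after their values were seen, were near 2410141K09Rik, Gm31714, LOC115488129, Zfp640, Olfr836, Khdrbs2, Rhobtb1, Prl2c2, 9930111J21Rik1 and Adam19. Of these, 4 lie in the same stretch of chromosome 13 that holds the printed promoters.

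**Figure D3:**
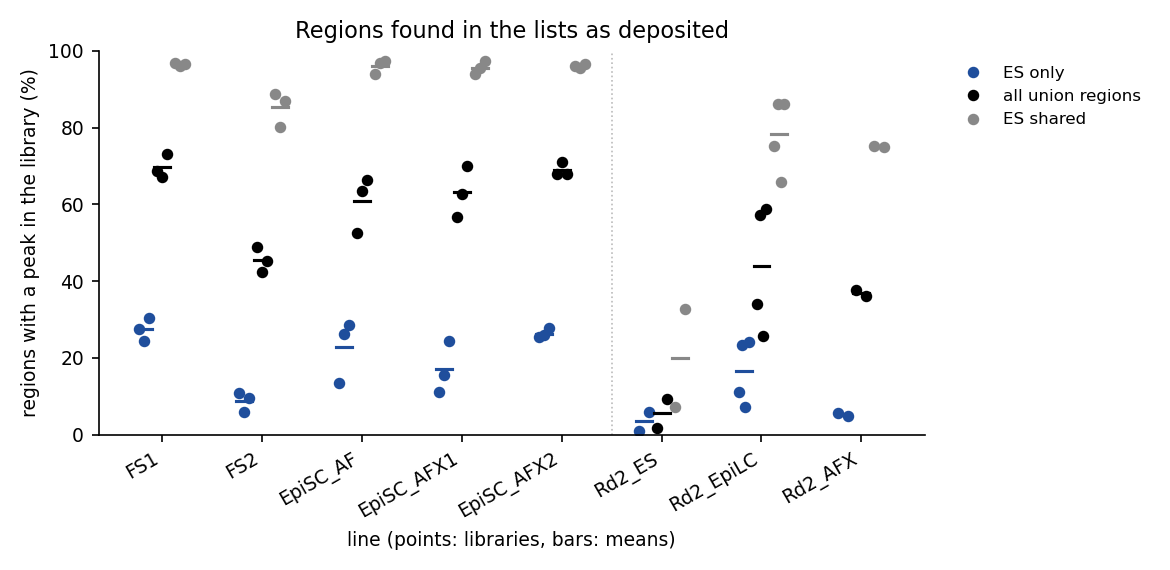
Share of ES-only (blue), all (black) and ES shared (grey) union regions with a peak (%) in each library of the lists as deposited, points being libraries and bars their means. ES-only regions stand between 5.98% and 30.5% in the FS and EpiSC libraries, where shared regions are at 80.1% or more.

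The Rd2 set held other ES libraries that the rule did not use. With every Rd2 list cut to its 471 highest peaks, Rd2_ES 1 and Rd2_ES 2 each had a peak in 12 of the 1287 regions (0.932%). The 4 Rd2_EpiLC lists had 6, 2, 4 and 4, and both Rd2_AFX lists had 0. The groups did not overlap, and ES was the highest. Of all union regions, the Rd2_ES lists had 1.72% and 1.82% at this length, Rd2_EpiLC 1.85% to 1.87% and Rd2_AFX 1.86% and 1.87%. The background was larger: at this length 755 union regions (3.01%) had a peak in at least 1 Rd2_ES list, against 22 ES-only regions (1.71%) and 650 ES shared regions (12.1%). So few regions limit what the order can say, and 2 against 4 libraries cannot go below an exact two-sided permutation p of 0.0667. The labels number the Rd2_EpiLC libraries in 2 parts, so pairs of them may share a source, and 2 against 2 could not go below 0.333.

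At the length of the second-shortest list, 2576 peaks, Rd2_ES 2 had 77 of the regions (5.98%). Rd2_EpiLC had 23, 14, 23 and 23, and Rd2_AFX had 2 and 1. Of the union regions that each list hit, 3.28% were ES only in Rd2_ES 2, 0.552% to 0.932% in Rd2_EpiLC and 0.0395% to 0.0792% in Rd2_AFX. Rd2_ES 1 is too short for this length, so Rd2_ES rests on 1 library there.

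In the lists as deposited the order turned. Rd2_ES 1 and 2 had 12 and 77 of the regions, Rd2_EpiLC 141, 300, 94 and 311, and Rd2_AFX 74 and 61, so the mean share was 3.46% in Rd2_ES, 16.4% in Rd2_EpiLC and 5.24% in Rd2_AFX. As a share of the union regions that a list hit, ES-only regions were 2.78% and 3.28% in Rd2_ES, 1.46% to 2.11% in Rd2_EpiLC and 0.675% to 0.783% in Rd2_AFX. At least 1 Rd2_ES list had 82 of the regions (6.37%), less than the 9.79% of all union regions. With at least 1 Rd2_ES list and no Rd2_AFX list there were 65 (5.05%), against 0.890% of all union regions. The choice of members without an equal-length EpiSC peak raises this contrast. Presence was counted from 1 bp. When a peak had to cover 50% of a region, Rd2_ES had 0.292% and Rd2_EpiLC 0.365% of the regions at 471 peaks, and the order of the pair was reversed.

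**Figure D4:**
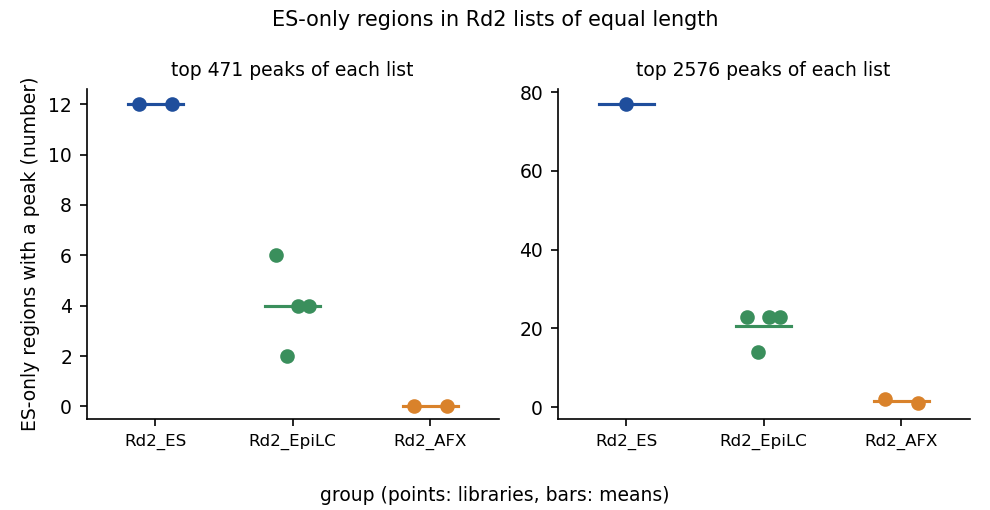
Number of ES-only regions with a peak in the Rd2 libraries (points, with bars for group means) when each list is cut to its 471 (left) or 2576 (right) highest peaks. Rd2_ES stands at 12 and 12 on the left and 77 on the right, Rd2_EpiLC at 2 to 6 and 14 to 23, and Rd2_AFX at 0 and at 1 to 2.

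The ES-only regions of highest rank in the first set were found in Rd2_ES more often than the rest. Of the 100 regions with the highest mean percentile in the ES lists, 23 had a peak in at least 1 deposited Rd2_ES list. Of the next 300 regions 17 did (5.67%), and of the remaining 887 regions 42 did (4.74%). The share was 9.79% over all union regions and 34% over ES shared regions. Those regions were not split by rank, so whether the difference is particular to ES-only regions was not tested. A peak in both Rd2_ES lists was found in 7 regions (0.544%), against 1.3% of all union regions. They were named after their values were seen and lie near Gm46425, Zfp640, 9530057J20Rik, Tmprss11a, Gpr37l1, Zfp600 and Nanog. Rd2_EpiLC lists had a peak in each of the 7 as well, 4 of 4 in 5 of them. No region had a peak in all 3 ES and both Rd2_ES lists and in none of the other 21 lists.

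The 10 regions of highest mean percentile were mostly intergenic. The first lay inside Lrrc4c, a synaptic adhesion gene, 304 kb from its nearer end (chr2:97327167-97327604), at percentile 97.2 in ES 1, 96.4 in ES 2 and 93.9 in ES 3. It had a peak in 2 FS and 2 EpiSC libraries at full length and in none of the Rd2 libraries. The region 1570 kb from Pcdh18, a protocadherin gene (chr3:48172532-48172866), was at 96.0, 91.0 and 95.6. The region 1440 kb from Prmt6, an arginine methyltransferase gene (chr3:111692182-111692905), was at 96.6, 90.2 and 92.9. Neither was found in Rd2_ES, so a high rank in 1 ES culture did not always go with a peak in the other.

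The rest of the 10 were near Zfp987, Gm46425, 2410141K09Rik, Rgl1, Prl2c5, Gm21119 and Gm7697. Rgl1 encodes an activator of Ral GTPases, and Prl2c5 a placental hormone of the prolactin family. The region 32.1 kb from Gm46425 (chr13:65990982-65991526), which overlaps the promoter of Gm40987, was at 93.4, 95.8 and 93.8, and it was one of the 2 regions that both Rd2_ES lists held within their highest 471 peaks (0.155% of the members and 0.535% of all union regions). The other was 17.3 kb from Zfp640 (chr13:66698144-66698778), at 93.9, 93.6 and 86.8. Both also had a peak in 4 of 4 Rd2_EpiLC lists and in no Rd2_AFX list, with 2 FS libraries at full length in the first and 2 EpiSC libraries in the second.

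Among the gene-end regions the highest was the promoter of 2410141K09Rik (chr13:66440981-66441369), at percentile 96.4, 93.6 and 90.1, with no full-length FS or EpiSC peak, 1 Rd2_ES and 2 Rd2_EpiLC lists. The promoter of Zfp640 (chr13:66680732-66681470) was at 92.1, 91.7 and 81.8 and that of Gm40881 (chr12:20311882-20312655) at 92.7, 94.4 and 77.3. Khdrbs2, an RNA-binding protein gene, had its region (chr1:32172520-32172822) at 94.1, 93.9 and 75.7. Rbmxl2, a retrogene for an RNA-binding protein of male germ cells, had it (chr7:107209216-107209556) at 61.0, 89.9 and 91.6. Aspm, a gene of the mitotic spindle poles, had a region 0.661 kb away in ES 2 (70.4) and ES 3 (92.9). Regions at Zfp996, Gm10479 and Gm6871 were also among the highest at gene ends. Of the named gene-end regions, those of 2410141K09Rik, Zfp640, Khdrbs2, Aspm, Rbmxl2 and Gm6871 had no full-length FS or EpiSC peak.

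Several of these promoters had peaks in the EpiLC libraries too. All 4 Rd2_EpiLC lists and no full-length FS or EpiSC list had 11 of the regions, a group chosen after its values were seen. They lie at or near Gm31714, Zfp640, Khdrbs2, Rbmxl2, Gm6871, LOC115488029, Zfp936, Gm50598, Vmn2r62, Idh2 and Zmynd8. Both Rd2_AFX lists had the Khdrbs2 region and none had the other 10, which are 2.39% of the 418 regions. For the 11, the share over all union regions was not counted, so they are named as a description only. Of the 11, 1 Rd2_ES list had those of Rbmxl2 and Gm6871 and neither had the other 9. Of all ES-only regions, 37 (2.87%) had a peak in all 4 deposited Rd2_EpiLC lists and in no Rd2_AFX list, against 1.44% of union regions. Here too the choice of members without an equal-length EpiSC peak raises the contrast. The Rd2_EpiLC lists differed in length, and with it in the number of ES-only regions they held.

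The pluripotency genes were searched for regions in their body or within 20 kb, which 867 of 21896 protein-coding genes (3.96%) had. Of 16 genes of naive pluripotency, 3 had one: Zfp42, Tbx3 and Nanog. Of 8 genes shared by all pluripotent states, 1 did (Pou5f1). None of 11 formative genes and none of 16 primed genes did. Some union region lay near 11 of the naive genes, 8 of the shared, 11 of the formative and 13 of the primed. An ES shared region lay near 6, 3, 1 and 1 of them. ES-only regions thus lay at 18.8% of the naive genes and 12.5% of the shared ones. The naive share was not the highest of the lists searched, since 20% of the fibroblast genes below had one. The rule leaves out peaks that ES shared with another line. With so few genes in a list, 1 gene moves its share by several percent, and no test was made.

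Zfp42, a zinc finger gene also called Rex1 and a widely used marker of the naive state, had 2 ES-only regions and no other union region. The one over its start (chr8:43306959-43307410) was at percentile 41.4 in ES 1, 88.2 in ES 2 and 86.6 in ES 3. At full length 1 EpiSC library, 2 Rd2_EpiLC libraries and neither Rd2_ES library had a peak there. The other, 13.7 kb away (chr8:43320729-43321235), was at 71.0, 72.2 and 53.5 and had a peak in none of the 21 other lists and in neither Rd2_ES list.

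Nanog, a homeobox gene of the pluripotency core that is most active in naive cells, had its region 4.36 kb away (chr6:122702526-122703126). Its percentiles were 22.6, 65.6 and 17.9, so it was high in ES 2 and low in the others. The ES 1 peak fell outside the equal-length list, so only 2 ES lists called the region. Both Rd2_ES lists, 1 Rd2_EpiLC list and 2 EpiSC libraries had a peak in it. Pou5f1, which encodes OCT4, had a region 1.84 kb away (chr17:35503953-35504195), absent from ES 1 and at 25.9 in ES 2 and 61.4 in ES 3. At full length 3 FS and 3 EpiSC libraries and 1 of 2 Rd2_ES libraries had it. Tbx3, a T-box gene of the naive network, had a region 0.015 kb from its end (chr5:119670549-119671026) at 74.3, 80.6 and 43.5, but 13 of the 15 FS and EpiSC libraries had a peak there at full length.

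Of 12 genes of the LIF and STAT3 pathway, which sustains ES cell self-renewal, only Bcl3 had a region, at 5.15 and 55.4 in ES 2 and ES 3. Of 12 genes of the BMP pathway, Id1, an inhibitor of differentiation that BMP induces, had 1 at 9.05 kb (chr2:152726873-152727202), at 66.0 in ES 1 and 92.1 in ES 3, with 1 Rd2_ES list and no FS, EpiSC or Rd2_EpiLC list. Of 9 matched genes of two-cell-like cells, Sp110 had 2. Of 16 germline genes kept methylated elsewhere, none had one.

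Genes of other lineages were looked at beside these, since cultures can hold other cells. Of 10 trophoblast genes, Tfap2c had a region 18.6 kb away, and 8 FS and EpiSC libraries had a peak in it at full length. Of 10 primitive endoderm genes none did. Of 10 fibroblast genes, the lumican gene Lum had a region 2.08 kb away (chr10:97563057-97563421), at 93.5, 63.2 and 94.8, with 10 FS and EpiSC libraries at full length. The region listed for Pdgfrb lay inside the neighbouring gene Cdx1, on chromosome 18. Lum and Pdgfrb make 20% of the fibroblast genes.

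The regions clustered in a few places. In 2 Mb windows, 5 held at least 10 ES-only regions, with 73 in all (5.67% of the 1287), where 1.18% of the union and 0.803% of the shared regions lay. On chromosome 4 the windows from 144 to 146 and from 146 to 148 Mb held 12 of 47 and 15 of 87 union regions. On chromosome 13 those from 64 to 66 and from 66 to 68 Mb held 13 of 41 and 19 of 59. On chromosome 8 the window from 20 to 22 Mb held 14 of 61. The windows were chosen for these counts.

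Zinc finger genes fill 2 of these windows, with 14 on chromosome 4 (146 to 148 Mb) and 24 on chromosome 13 (66 to 68 Mb), and none lies in the window on chromosome 8. Zfp978 had 6 ES-only regions in its body or within 20 kb, the most of any gene, and Zfp990 and Gm42346 had 3 each. Gm40363 had 4, and Fgf12, which encodes a fibroblast growth factor homologue that acts inside the cell, had 3. Over the genome, 37 of the regions (2.87%) lay in or within 20 kb of a Zfp gene, against 3.10% of shared and 2.53% of all regions. Counted by gene, 30 of 397 Zfp genes (7.56%) had an ES-only region, against 3.96% of all protein-coding genes. Without the regions of the 5 windows 19 did (4.79%).

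A larger share of the 73 regions in the windows than of the others had a peak in the Rd2_ES lists, although most of the regions found there lay elsewhere. This was not seen in Rd2_ES alone. In the deposited lists Rd2_ES had 5 and 9 of them (6.85% and 12.3%), and 7 and 68 of the 1214 elsewhere (0.577% and 5.60%). Of all union regions the same 2 lists had 1.72% and 9.37%. Rd2_EpiLC 1 to 4 had 16.4%, 31.5%, 20.5% and 31.5% of the 73, against 10.6%, 22.8%, 6.51% and 23.7% elsewhere. FS2 1 to 3 had 19.2%, 8.22% and 23.3%, against 10.4%, 5.85% and 8.73%. Both Rd2_AFX lists went the other way, with 2.74% each against 5.93% and 4.86%, and the remaining FS and EpiSC libraries went both ways. Without the 73 the mean share at 471 peaks fell to 0.618% in Rd2_ES and 0.0824% in Rd2_EpiLC. In the FS and EpiSC libraries 6 to 20 of the 73 had a full-length peak (8.22% to 27.4%). The shares there were 5.85% to 30.8% of the ES-only regions elsewhere and 42.3% to 73.1% of all union regions. The windows on chromosome 13 hold several of the near-identical promoters printed above. How the authors placed reads that match several copies is not given in the sources used here, so which of those copies was open is uncertain. Copies away from promoters were not looked for.

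The promoters bear copies as well. ES-only regions overlapped 147 promoter windows (250 bases before a start to 50 after) of 129 genes. Of these, 33 (22.4%) shared an exact stretch of 30 bases with the window of another gene, against 3.25% of the windows in ES shared regions, 3.75% of those in any union region and 11.7% of all 32851 windows. Of 10696 pairs of the 147 windows, 23 were at least 75% identical, and these joined 16 windows in 4 groups, where the median pair was 49.9% identical.

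The largest group joined 2410141K09Rik, Gm17353, Gm31714, Gm45966, Gm46425 and Zfp640 on chromosome 13, at 73.4% to 96.0% identity with 2 to 6 CG each. Gm40985 and Gm26715, on the same chromosome, were 96.7% identical. Gm6871, Zfp936 and Zfp977 on chromosome 7 were 81.8% to 89.8% identical. Gm40881, Gm3973, Gm38699 and LOC108167368 on chromosome 12 were CG-rich, with 28 to 33 each, at 65.9% to 90.4%. The median number of CG dinucleotides was 20 in the 147 windows, 25 in windows of shared regions and 7 in all windows.

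Short motifs were counted in the 147 windows on both strands, and matches of different motifs could overlap. CCNCNCCC, a match for KLF and SP factors, was in 65.3% of them (96 windows), in 77.9% of the windows of shared regions and in 49.5% of all windows. ATGCAAA, a match for POU factors, was in 6.80%, 2.97% and 4.63%, which is 10 of the 147. One of those is the printed stretch of Zfp42. GGAATG (TEAD) was in 15.6%, 9.81% and 14.7%, and TGACTCA (AP-1) in 5.44%, 2.00% and 5.20%. AAGGTCA (ESRRB and other nuclear receptors) was in 2.04%, 1.70% and 4.72%, CACGTG (E-box) in 7.48%, 10.0% and 7.15%, and TTCCNGGAA (STAT) in 1.36%, 0.688% and 1.15%. None of the shares of ES-only windows stood outside both others by more than 3 percentage points, and the sequence of the distal regions, most of the 1287, was not analysed here.

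The chromosomes differed in their share of ES-only regions. On X, 69 of 646 union regions (10.7%) were ES only, the highest share, followed by Y with 8 of 94 (8.51%) and chromosome 13 with 84 of 1088 (7.72%). The lowest was 2.85% on chromosome 19, with 18 of 631. X held 2.45% to 2.52% of the peaks of the equal-length ES lists, 1.03% to 1.18% in FS2 and 1.86% to 2.60% in the other lines, so the X content of the lists themselves overlapped between ES and others. On X the region of highest rank lay inside Dmd, the dystrophin gene. The deposited first-set lists held 27 to 84 peaks on Y, with 79, 42 and 75 in ES. On Y, Rd2_ES had 0 and 0, Rd2_EpiLC 0, 2, 2 and 4, and Rd2_AFX 5 and 6, in lists of unlike length. Whether the lines differ in sex or in X copies is not given in the labels and was not tested.

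**Figure D5:**
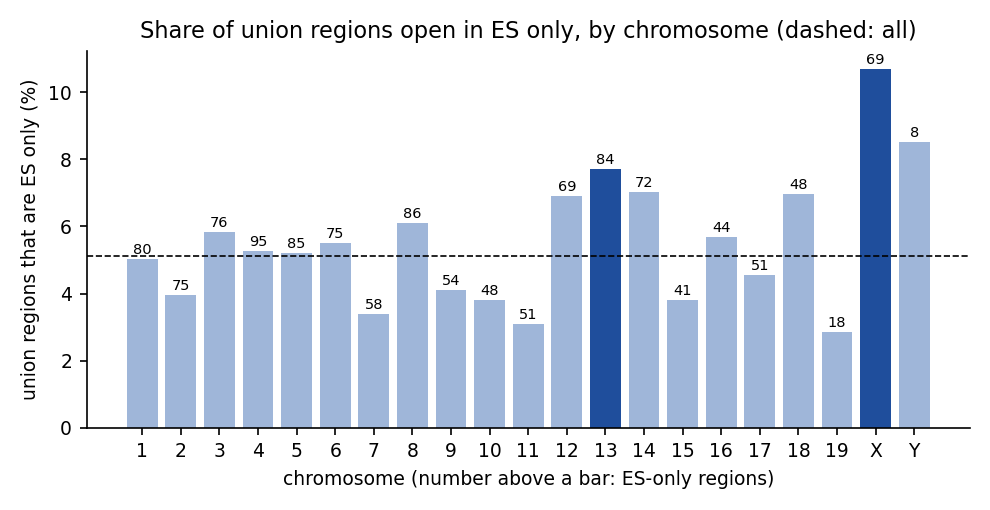
Share of the union regions of each chromosome that were ES only (%), with the number of ES-only regions above the bar, the dashed line at the share of all chromosomes (5.13%) and the bars of X and 13 in dark blue. X stands at 10.7% and chromosome 13 at 7.72%, and chromosome 19 is lowest at 2.85%.

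MicroRNA genes were rarely near the regions. Of 1005 hairpins in the RefSeq table, 10 lay within 5 kb of 5 ES-only regions. One region (chr3:127544801-127545040) lay 0.188 kb from Mir302b, the first gene of the Mir302 and Mir367 cluster, which is known for its activity in pluripotent cells. It was absent from ES 1 and at percentile 76.6 in ES 2 and 37.3 in ES 3, and 13 of the 15 FS and EpiSC libraries had a peak in it at full length, so it was ES only by rank alone. Of the cluster, 3 mature sequences are printed from RefSeq (GRCm38.p6) with the seed, bases 2 to 8, in capitals, because miR-302b-3p and miR-302d-3p share a seed and miR-367-3p does not.
miR-302b-3p: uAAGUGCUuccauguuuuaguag
miR-302d-3p: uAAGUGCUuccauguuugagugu
miR-367-3p: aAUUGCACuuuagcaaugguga
The regions near Mir191, Mirlet7i and Mir8109 were also held by 12 to 15 FS and EpiSC libraries at full length. The region 3.06 kb from Mir5124a, inside Gcnt2, was held by none of them and was at 28.4, 28.9 and 60.0 in the 3 ES lists.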

How the data were processed

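ATAC-seq peak lists of 26 libraries were used, each called from 1 library. Per the submitters' processing notes, Trim Galore, Bowtie, Picard and MACS2 were used with mm10; versions and controls are not given in the sources used here. Each deposited peak carries the authors' fold (a ratio to a background not stated), −log10 p, −log10 q and a score that equals 10 times −log10 q without its decimals. These values were used only within a list, and no columns of other samples were met. Presence means an overlap of at least 1 bp.

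Peaks were ranked by −log10 p, and the script that applies the rule was checked on simulated lists. Distances are to either end of 21896 protein-coding RefSeq genes (GRCm38.p6), since the table has no strand. Promoter pairs were aligned globally (Biopython 1.88). Groups came from the source labels. Apart from an outlier check on Rd2_EpiLC, no test was made, since the members were chosen on these data. The sign ± marks the SD over libraries. The members, gene lists and motifs were chosen with earlier results of these data known. The rule for named regions took the 10 highest by mean percentile over the ES lists, the 10 highest at gene ends, every region at a listed gene, the 5 genes with most regions, and those found in all ES lists of both sets and no other (there were none). Alternatives covered ranking, list length, overlap, merging and each library left out. A genome sequence was not used here. One region that this rule names is not reported here.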

Additional observations from a re-analysis of the deposited data

Results flagged for a closer look

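Among the 4 Rd2_EpiLC libraries at 2576 peaks, Rd2_EpiLC 2 stood apart, with 14 ES-only regions where each of the other 3 had 23. The gap took up the whole range of the group, above the limit of 0.829 for 4 samples. Chance flags about 1 group in 20 for a single measure, but 4 measures were checked and only this one was flagged. The limit is meant for values without ties, and the other 3 counts were tied. The limit takes the 4 libraries as separate samples, which the labels do not settle. At 471 peaks the same library was the lowest as well, with 2 against 4 to 6. At full length it was not, with 300 regions against 94, 141 and 311.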

How the results depend on the processing

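The share of regions at gene ends stayed under 20% in every alternative run, against 67.8% of shared regions in the reported setting, whereas the counts and the Rd2 shares depended on list length. The cause of each change was not tested. Values are in the order number of regions, percent at gene ends, median distance to a gene end (kb), number without a full-length FS or EpiSC peak, percent with a peak in Rd2_ES and in Rd2_EpiLC, and Rd2_ES minus Rd2_EpiLC and minus Rd2_AFX in percentage points; the reported ones are 1287, 11.6, 31.4, 418, 0.932, 0.311, 0.622 and 0.932. Ranking by fold gave a distance of 40.0 kb, Rd2_ES 0.807% and differences of 0.404 and 0.807. Ranking by −log10 q gave 0.934% and a difference from Rd2_AFX of 0.934, and joining peaks up to 200 bp apart gave 0.940% and 0.940. The lists as deposited gave 612 regions, 5.07%, 38.2 kb, 0.327% and differences of 0.123 and 0.327. Lists of 4022 peaks gave 444 regions, 19.6%, 20.7 kb, 98 without a peak, 3.27% and 0.901%, and differences of 2.36 and 3.27. Peaks of −log10 q of at least 5 left 29 regions, 13.8%, 29.4 kb, 4 without a peak, Rd2_ES 0% and Rd2_EpiLC 16.4%, and differences of -16.4 and 0. Coverage of 50% gave 13.3%, 29.6 kb, 0.292%, and differences of -0.0731 and 0.292. Requiring all 3 ES lists gave 372 regions, 12.9%, 29.8 kb, 87 without a peak, 2.28% and 1.01%, and differences of 1.28 and 2.28. With the Rd2 lists as deposited the shares were 3.46%, 16.4% and, in Rd2_AFX, 5.24%, and the differences -13 and -1.79.

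Chosen after seeing the data were 3 settings. Rd2 lists of 2576 peaks gave 5.98%, 1.61% and, in Rd2_AFX, 0.117%, with differences of 4.37 and 5.87. Leaving out the 5 crowded windows gave 32.7 kb, 0.618% and 0.0824%, and a difference from Rd2_AFX of 0.618. The 418 regions without a full-length peak gave 5.74%, 0.478% and differences of 0.179 and 0.478. With each library left out in turn, the number of regions ranged from 672 to 1338, those without a full-length peak from 197 to 459, the share at gene ends from 10.3% to 13%, the distance from 29.2 to 31.5 kb, Rd2_ES from 0.897% to 1.47%, Rd2_EpiLC from 0.259% to 0.595%, and the differences from 0.570 to 0.920 and from 0.897 to 1.47; Rd2_AFX remained at 0%. The lowest counts and the highest Rd2_ES shares came from leaving out an ES library. No paired analysis was possible because each first-set value comes from 1 set of regions built from all libraries together, and the 2-part numbers of Rd2_EpiLC do not match those of Rd2_ES. Depth was unknown, and the 471 peaks of Rd2_ES 1 limit every Rd2 value.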
